A study of Mus musculus with 58 samples.

Results

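Genes of the oxidative stress response, 10 in all, were followed through the day in retinas of non-diabetic and diabetic mice. They comprised Nfe2l2, which encodes the transcription factor NRF2, 6 of its best known target genes (Hmox1, Nqo1, Gclc, Gclm, Txnrd1 and Srxn1), and the metallothionein genes Mt1, Mt2 and Mt3. The genes were taken by symbol, and they make up 10 of the 52459 genes counted. The control mice were wild-type males (genotype label C57/BL/6), and the diabetic mice were their heterozygous male littermates carrying the Akita mutation of insulin 2 (C57BL/6-Ins2Akita/J), in which misfolded insulin damages the beta cells of the pancreas and raises blood glucose. All mice were 4 months old, were kept under 12 h of light and 12 h of darkness, and had their retinas taken at 6 time points given as Zeitgeber time (ZT, hours after lights on), under dim red light in the dark phase. Ribosomal RNA was depleted from the total RNA of single retinas, which were sequenced for 30 control libraries, with 5, 6, 5, 5, 5 and 4 at ZT1, ZT5, ZT9, ZT13, ZT17 and ZT21, and for 28 diabetic libraries, with 5, 5, 5, 4, 4 and 5. The study's methods call the libraries of a time point biological replicates, and the labels do not tie them to individual mice. The mutation is present in every cell of the diabetic mice, and only 1 age and 1 sex were sampled.

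NRF2 is held in the cytoplasm and marked for degradation by KEAP1 until oxidants or electrophiles modify KEAP1. It then enters the nucleus, pairs with a small MAF protein and binds antioxidant response elements, which lie upstream of genes that make glutathione, reduce thioredoxin and detoxify quinones and heme. Metallothioneins are small cysteine-rich proteins that bind zinc and copper and scavenge oxidants. Of their genes, Mt1 and Mt2 respond to zinc through the factor MTF1 at metal response elements, and they also respond to glucocorticoids. In the retina both systems are active in Müller glia and in the pigment epithelium, the layer that recycles visual pigment and that adheres to the retina when it is dissected.

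Between 7773120 and 22147400 reads per library (to 6 significant digits) were counted on genes, with medians of 15261000 in control and 15471700 in diabetic retinas. Counts were divided by size factors to give normalized counts, and the 19120 genes with a median above 4 normalized counts were tested, among which were all 10 genes described here. The libraries held abundant rod transcripts, with 527363 to 797057 normalized counts summed over 8 rod markers. They also held RNA of neighbouring tissues. The sum of 10 lens markers lay at or above 30239 in 3 control libraries and at or below 1079 in the other 55. The sum of 9 pigment epithelium markers ran from 439 to 4564 in control and from 373 to 5013 in diabetic libraries, and it changed with the time of day, from a mean of 1054 ± 511 (SD) at ZT1 to 3387 ± 813 at ZT21 in control retinas and from 478 ± 68.6 at ZT5 to 3275 ± 1213 at ZT13 in diabetic retinas. Of the 8 pigment epithelium markers tested, 4 differed among the time points in control and 5 in diabetic retinas, where 9.10% and 10.1% of all genes did. The sum of 8 Müller glia markers moved less, from means of 56815 ± 2358 at ZT5 to 68341 ± 3998 at ZT17 in control and from 56168 ± 3415 at ZT1 to 67339 ± 6549 at ZT17 in diabetic retinas, with 1 and 3 of 8 markers past the test. In bulk tissue, fewer cells of a type and less RNA per cell cannot be told apart.

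The 10 genes differed widely in level. Scaled to exon length and library size (RPKM), Mt1 at 16.8 ± 6.15 (SD, n = 30 control libraries), Mt2 at 16.1 ± 7.18 and Srxn1, which encodes sulfiredoxin, at 16.0 ± 1.52 were highest and did not differ from each other beyond their spread. Gclc, the catalytic subunit of glutamate-cysteine ligase that limits the rate of glutathione synthesis, followed at 9.96 ± 0.60 RPKM and Mt3, the metallothionein of neural tissue, at 8.68 ± 2.17, a difference within the SD of Mt3 but not of Gclc. Txnrd1, which encodes the cytosolic thioredoxin reductase, stood at 6.03 ± 0.34 RPKM, and Nfe2l2 lay within its own spread of that level, at 5.87 ± 0.68. Gclm, the modifier subunit of the ligase, was lower than Nfe2l2 by more than the SD of either gene, at 4.97 ± 0.65 RPKM. Nqo1, a quinone reductase, at 1.64 ± 0.43 and Hmox1, the inducible heme oxygenase, at 1.11 ± 0.25 RPKM were lowest, and differed by more than the SD of either gene. In diabetic retinas the levels ran from 19.0 ± 10.5 RPKM (n = 28) for Mt1 to 1.16 ± 0.27 for Hmox1. The length used was that of all annotated exons of a gene joined. It was 1246 bases for Mt1, which is the whole span of the gene, 1066 for Mt3 and 588 for Mt2. A shorter length would give a higher RPKM, so the order of the genes and their likeness in level hold for these lengths alone.

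Letters of the antioxidant response element (TGACNNNGC, either strand) were searched in the 250 bases before each RefSeq transcription start on GRCm38.p6. The sequence table held windows for 8 of the 10 genes, 10 windows in all, with none for Hmox1 and Gclc. The letters were found in 4 of these 10 windows and in 10.2% of all 32851 windows of the table. The matches are shown, in capitals with the bases beside them and in the direction of the gene (the reverse strand for Nfe2l2, the forward strand for the others), because they are the sites through which NRF2 and the small MAF proteins could act on these genes. They lie at chr2:75704895-75704903 (Nfe2l2), chr3:122245423-122245431 (Gclm), chr10:82859114-82859122 (Txnrd1, the second of its 3 starts) and chr8:94172539-94172547 (Mt2).
Nfe2l2: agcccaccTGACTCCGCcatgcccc
Gclm: tcccgggcGCACCGTCAactctcac
Txnrd1: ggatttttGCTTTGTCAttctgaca
Mt2: agggggtgTGACTCAGCgcgggggg
The E-box CACGTG, which clock proteins bind, was in none of the 10 windows and in 6.02% of all windows. Such a match is a description of sequence and not evidence of binding in these retinas.

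Nfe2l2 was highest in the middle of the night and lowest in the middle of the day in both genotypes. In control retinas the 5 libraries at ZT17 held 390.3, 348.2, 394.0, 405.6 and 369.0 normalized counts, and the 6 libraries at ZT5 ranged from 254.6 to 317.4. No ZT17 library reached down to the ZT5 range, and the means of 381.4 ± 22.8 (SD, n = 5) and 284.4 ± 23.1 (n = 6) differed 1.34-fold. In diabetic retinas the 4 libraries at ZT17 held 377.7, 422.3, 349.6 and 474.7 normalized counts and the 5 at ZT5 held 310.6, 289.0, 291.6, 317.9 and 266.5. Again the groups did not overlap, and the means of 406.1 ± 54.7 and 295.1 ± 20.2 differed 1.38-fold. Of all genes tested, 15.8% in control and 18.7% in diabetic retinas had no overlap between their highest and lowest time point. In edgeR's quasi-likelihood test of any difference among the 6 time points, Nfe2l2 passed in control (adjusted p = 0.00332) and in diabetic retinas (adjusted p = 0.00227). The gene lies at chr2:75675513-75704641 on the reverse strand.

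In this time-of-day test, 2 of the 10 genes passed in control retinas (Nfe2l2 and Mt2), where 9.10% of all genes passed. In diabetic retinas 5 of the 10 passed (Gclc, Nfe2l2, Mt1, Mt2 and Nqo1), where 10.1% of all genes did. The difference between the genotypes' time courses was itself tested and passed for none of the 10.

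Gclc ran opposite to Nfe2l2, with its peak in the light phase. At ZT5 the 5 diabetic libraries held 574.7, 586.1, 627.5, 621.2 and 538.3 normalized counts, and at ZT21 they held 489.8, 451.9, 514.8, 479.2 and 475.2. Every ZT5 library was above every ZT21 library, the means of 589.6 ± 36.4 and 482.2 ± 22.9 differed 1.22-fold, and the adjusted p over the 6 time points was 0.000341. In control retinas the means ran from 565.1 ± 23.8 at ZT9 to 511.6 ± 12.3 at ZT17, a 1.10-fold difference without overlap between the groups. That profile did not pass the time-of-day test (adjusted p = 0.329), and the difference between the genotypes in the 24 h cosine had an unadjusted p of 0.0768 (adjusted p = 0.999948).

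The partner of Gclc in the ligase, Gclm, had its highest mean at ZT13 in both genotypes, with 500.3 ± 75.1 normalized counts (n = 5) in control and 510.2 ± 50.8 (n = 4) in diabetic retinas. Its lowest means were 413.3 ± 45.7 at ZT17 and 415.4 ± 35.4 at ZT1, and it did not pass the time-of-day test (adjusted p = 0.480 in control and 0.193 in diabetic retinas). Gclm overlaps the transcript Gm17494 on the opposite strand, which held a mean of 140.7 reads per library. The strand setting of the counting is not given in the sources used here, so reads of the overlap cannot be assigned with certainty.

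Nqo1 was lowest at ZT5 and highest at ZT21 in diabetic retinas. The 5 libraries at ZT21 held 52.2, 50.1, 52.7, 56.5 and 43.9 normalized counts, and the 5 at ZT5 held 32.2, 36.2, 27.9, 29.2 and 34.1. These groups did not overlap, and the means of 51.1 ± 4.62 and 31.9 ± 3.44 differed 1.60-fold (adjusted p over all 6 time points = 0.0461). In control retinas the ZT21 libraries fell into a high pair, with 58.9 and 59.3 normalized counts, and a low pair, with 32.9 and 33.2. The means there went from 29.7 ± 6.67 at ZT1 to 46.1 ± 15.1 at ZT21 with overlap between the groups (adjusted p = 0.265). The diabetic call stood close to the threshold and was lost without any 1 of 26 of the 58 libraries, with adjusted p-values from 0.0188 to 0.11 over all 58.

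The remaining targets gave no time-of-day call. Hmox1 rested on only 13 to 60 reads per library. Its control means ran from 34.1 ± 7.71 normalized counts at ZT5 to 24.2 ± 4.46 at ZT21 (adjusted p = 0.407), while in diabetic retinas they stayed between 27.3 ± 5.28 at ZT5 and 31.8 ± 7.33 at ZT21 (adjusted p = 0.977). Txnrd1 was the steadiest, with means from 593.6 ± 35.0 to 636.9 ± 39.2 normalized counts in control and from 607.2 ± 16.2 to 661.1 ± 54.3 in diabetic retinas. Srxn1 had its highest means in the dark phase, at 702.8 ± 73.5 (ZT17, control) and 749.6 ± 94.9 (ZT21, diabetic), and its lowest at ZT9 in both genotypes, at 620.7 ± 49.1 and 656.6 ± 59.7, with groups that overlapped.

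**Figure D1:**
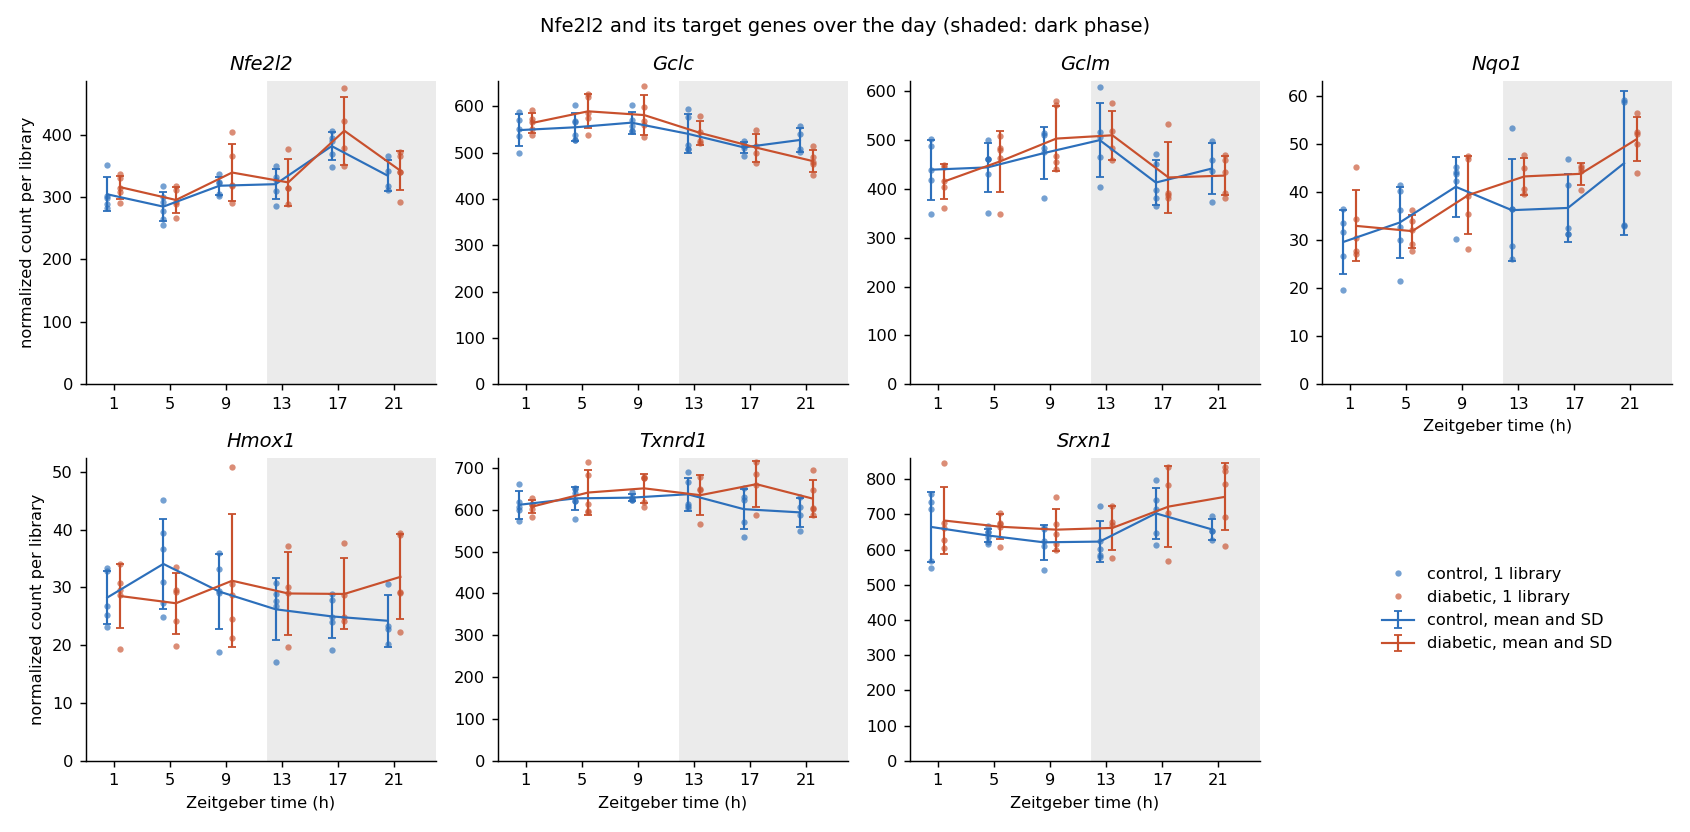
Normalized counts of Nfe2l2 and its 6 target genes against Zeitgeber time in hours, with 1 point per library, lines through the group means, bars for the SD, blue for control, red for diabetic retinas and the dark phase shaded. Nfe2l2 peaks at ZT17 in both genotypes (means 381.4 and 406.1), whereas Gclc is highest in the light phase and falls to 482.2 at ZT21 in diabetic retinas.

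The 3 metallothionein genes lie in a row on the forward strand of chromosome 8, Mt3 at chr8:94152607-94154146, Mt2 at chr8:94172664-94173568 and Mt1 at chr8:94179082-94180327, with 18517 bases between the first pair and 5513 between the second. As the 3 genes varied together, the 250 bases before the RefSeq start of each are shown with the metal response element core (TGCACNC or TGCGCNC, either strand) in capitals. The core was found in 21.4% of all 32851 windows. The windows are chr8:94178839-94179088 (Mt1), chr8:94172368-94172617 (Mt2) and chr8:94152357-94152606 (Mt3), all on GRCm38.p6 and forward.
Mt1: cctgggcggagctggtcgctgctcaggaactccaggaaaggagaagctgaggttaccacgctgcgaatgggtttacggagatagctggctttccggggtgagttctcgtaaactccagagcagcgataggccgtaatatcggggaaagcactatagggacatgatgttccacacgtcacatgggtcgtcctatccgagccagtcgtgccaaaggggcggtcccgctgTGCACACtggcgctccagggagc
Mt2: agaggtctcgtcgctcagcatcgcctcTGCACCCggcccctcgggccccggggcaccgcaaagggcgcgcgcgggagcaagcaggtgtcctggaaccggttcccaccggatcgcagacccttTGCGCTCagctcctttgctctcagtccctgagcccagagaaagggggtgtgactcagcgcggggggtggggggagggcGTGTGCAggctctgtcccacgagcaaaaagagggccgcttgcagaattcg
Mt3: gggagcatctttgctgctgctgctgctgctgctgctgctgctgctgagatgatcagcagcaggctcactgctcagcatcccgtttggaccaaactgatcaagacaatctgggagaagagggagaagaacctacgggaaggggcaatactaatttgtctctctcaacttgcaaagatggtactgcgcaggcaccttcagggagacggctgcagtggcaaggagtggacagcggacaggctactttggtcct
Mt2 held 3 cores, Mt1 held 1 and Mt3 held none in these windows. The core was also found once before Srxn1 and at 2 places before Gclm, 1 of which overlapped the antioxidant response element letters shown above. No match in a window says only that the letters are not there. The numbers of cores also hold for these windows alone, since bases after the RefSeq start and farther upstream were not searched.

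The means of Mt1 were lowest at ZT1 in both genotypes and those of Mt2 at ZT1 in control and ZT5 in diabetic retinas. Both genes had their highest mean at ZT9 in control and ZT13 in diabetic retinas. The diabetic means at ZT13 include a library far above the others of its group, which is described below. In control retinas Mt2 at ZT1 held 73.4, 68.8, 43.9, 72.0 and 145.0 normalized counts, and at ZT9 it held 160.0, 155.4, 264.4, 256.6 and 206.6. The lowest ZT9 library was above the highest ZT1 library, and the means of 208.6 ± 51.5 and 80.6 ± 37.9 (n = 5 each) differed 2.59-fold (adjusted p = 0.0416). Control Mt1 was at 213.2 ± 62.9 normalized counts at ZT1 and 396.8 ± 91.1 at ZT9, also without overlap between these groups, but did not pass over the 6 time points (adjusted p = 0.187). The Mt2 call in control retinas was lost without any 1 of 14 libraries, with adjusted p-values of up to 0.114.

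In diabetic retinas both genes passed, Mt1 with an adjusted p of 0.0101 and Mt2 of 0.0140, and both had their highest mean at ZT13. The 4 diabetic libraries at ZT13 held 313.9, 288.2, 604.6 and 1093.1 normalized counts of Mt1 and 173.8, 161.3, 240.8 and 458.9 of Mt2. The last of these libraries was the highest of all 58 for both genes. It also had the largest pigment epithelium marker sum, 5013 against 2229 to 3101 in the other 3 libraries, and the smallest rod marker sum, 527363. Its cornea and ciliary body marker sum, 452, was also above the 138 to 242 of the other 3 libraries, as was its blood marker sum, 142 against 9.85 to 124, and the part of these tissues in its Mt1 and Mt2 counts was not tested. Without it, the adjusted p rose to 0.121 for Mt1 and 0.0835 for Mt2. The time of the highest diabetic mean also depends on this library. Among the other 3, those with 313.9 and 288.2 counts of Mt1 lay below the diabetic ZT17 mean of Mt1. The same libraries, with 173.8 and 161.3 counts of Mt2, lay below the diabetic ZT9 mean of Mt2. The library with 604.6 and 240.8 counts lay above both means. No difference in peak time between the genotypes is therefore drawn from these means.

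Mt3 was highest at ZT17 in both genotypes, at 170.2 ± 29.8 normalized counts in control retinas, and was lowest at ZT5 there at 108.9 ± 28.04. It did not pass the time-of-day test in either genotype (adjusted p = 0.130 in control and 0.144 in diabetic retinas).

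**Figure D2:**
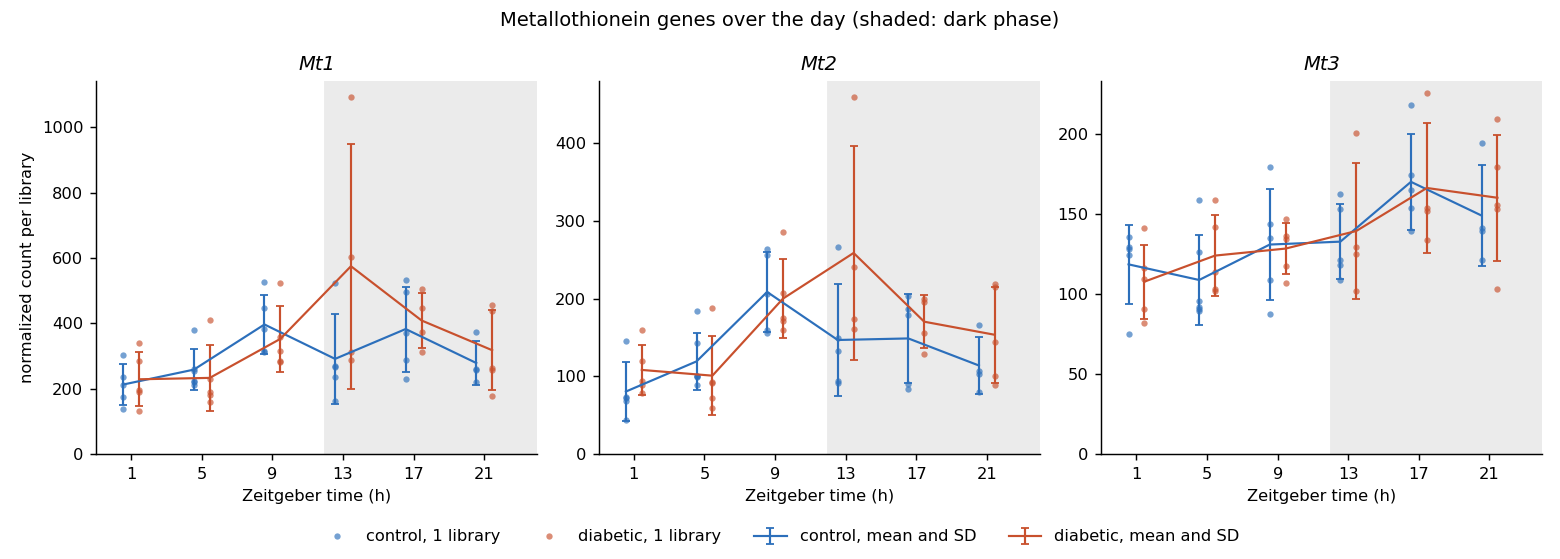
Normalized counts of Mt1, Mt2 and Mt3 against Zeitgeber time in hours, with 1 point per library, lines through the group means, bars for the SD, blue for control and red for diabetic retinas, and the dark phase shaded. The library with 1093.1 counts of Mt1 and 458.9 of Mt2 stands alone at ZT13 in the diabetic group.

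As pigment epithelium and Müller glia markers also changed over the day, the time-of-day test was repeated with the log2 sum of either list as a covariate. With the pigment epithelium sum in the model, Nfe2l2 passed in control (adjusted p = 0.0322) and diabetic retinas (0.0220) and Gclc passed in diabetic retinas (0.000934). Mt2 in control retinas (0.180) and Mt1 (0.355), Mt2 (0.361) and Nqo1 (0.879) in diabetic retinas no longer passed. With the Müller glia sum in the model, Gclc (7.46e-05), Nfe2l2 (0.0379), Mt1 (0.0397) and Mt2 (0.0251) passed in diabetic retinas and Nqo1 did not (0.108). In control retinas Mt2 passed (0.0131) and Nfe2l2 did not (0.169). Gclc and Nfe2l2 in diabetic retinas were therefore the calls that were present in all 3 models. Part of the change over the day is shared between the markers and the genes, and such a model assigns that part to the markers.

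**Figure D3:**
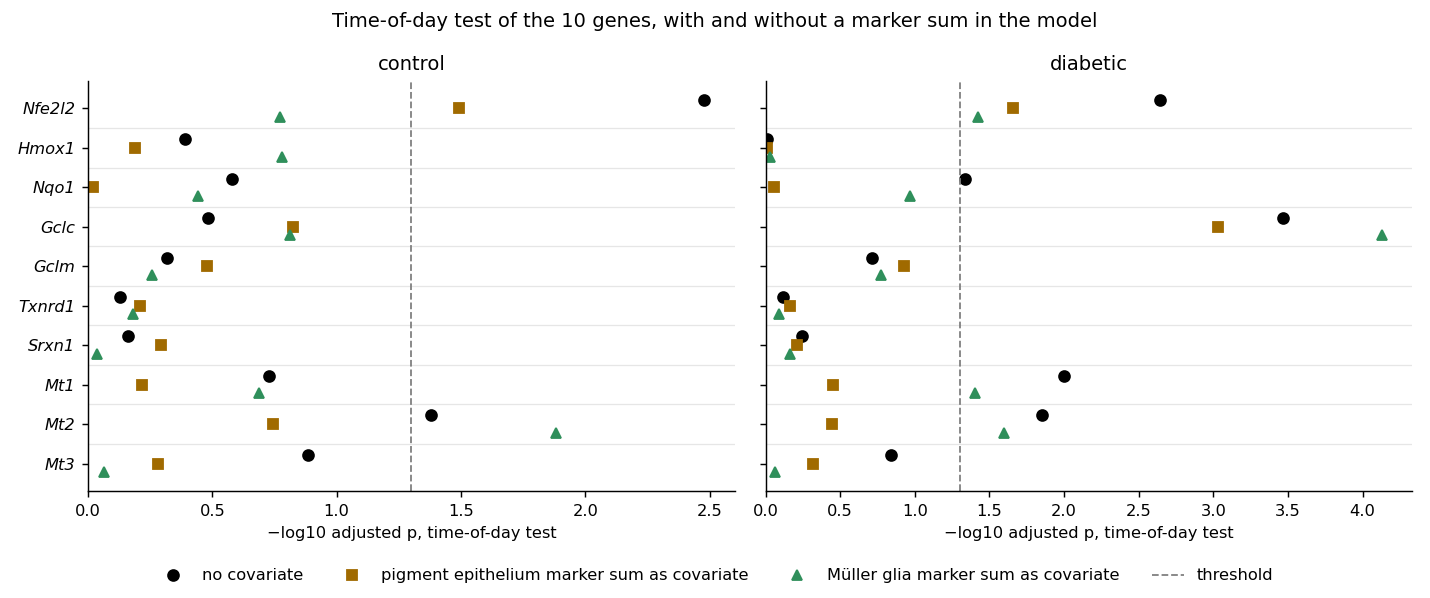
The negative log10 of the adjusted p of edgeR's time-of-day test on the horizontal axis for each of the 10 genes, in control (left) and diabetic retinas (right), with no covariate (circles), the pigment epithelium marker sum (squares) or the Müller glia marker sum (triangles) in the model. The dashed line is the threshold of 0.05, and in diabetic retinas Nfe2l2 and Gclc lie to its right with all 3 symbols.

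In the rhythm test (empirical JTK_CYCLE, unadjusted p under 0.05 and a minimum fold between the highest and lowest library, with p-values from permutation of the libraries), 5 of the 10 genes were called in control and 7 in diabetic retinas, where 21.8% and 23.9% of all genes were. Nfe2l2 (permutation p = 3.5e-05 in control and 0.00926 in diabetic retinas), Mt1 (0.00927 and 0.00498), Mt2 (0.00304 and 0.00368) and Mt3 (0.0167 and 0.0273) were called in both. Hmox1 was called in control (permutation p = 0.0295) and not in diabetic retinas (p = 0.888), and Nqo1 (0.00143), Gclc (2.5e-05) and Gclm (0.0346) were called in diabetic retinas alone. Control Gclc had a permutation p of 0.0295 but a fold of only 1.23, under the minimum. After adjustment over all genes, which left 8.43% of all genes in control and 10.4% in diabetic retinas, Nfe2l2 (0.00211) and Mt2 (0.0397) passed in control, and Nqo1 (0.0224), Gclc (0.00269), Mt1 (0.0479) and Mt2 (0.0395) in diabetic retinas. In edgeR's cosine model 3 of the 10 passed in control and 6 in diabetic retinas, where 12.2% and 14.2% of all genes did. Txnrd1 and Srxn1 were called by the rhythm test in neither genotype.

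The peak of the fitted 24 h cosine (acrophase) fell at different times for the genes called by the rhythm test. Gclc was earliest of the 10 in diabetic retinas, and lay at ZT6.48 ± 1.22 (SE) in control and ZT6.68 ± 0.63 in diabetic retinas. Control Hmox1 lay at ZT5.72 ± 1.28. Gclm lay at ZT10.3 ± 1.98 and ZT10.5 ± 1.16, Mt2 at ZT11.4 ± 1.07 and ZT13.5 ± 0.97 and Mt1 at ZT13.1 ± 1.53 and ZT14.1 ± 1.06. Nfe2l2, at ZT17.1 ± 0.69 and ZT16.7 ± 1.06, and Mt3, at ZT17.2 ± 1.12 and ZT16.9 ± 1.30, had fitted peaks that differed by less than their errors, and diabetic Nqo1 lay at ZT17.2 ± 0.84. The amplitude relative to the fitted mean was 11.8% ± 2.03 and 11.3% ± 3.19 for Nfe2l2 and 4.33% ± 1.37 and 9.60% ± 1.57 for Gclc. It was 35.2% ± 10.7 and 42.0% ± 11.2 for Mt2, 22.1% ± 8.91 and 43.6% ± 12.8 for Mt1 and 19.1% ± 5.35 and 18.0% ± 6.25 for Mt3. Control Hmox1 had an amplitude of 15.7% ± 5.14 and diabetic Nqo1 of 19.7% ± 4.39. The fitted peaks and amplitudes of Mt1 and Mt2 in diabetic retinas include the ZT13 library with 1093.1 counts of Mt1. They were not fitted again without it.

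The difference in rhythm between the genotypes was tested with the interaction of genotype with the 24 h cosine. None of the 10 genes passed, and none of the 19120 genes passed either (0.00%), although 643 (3.36%) had an unadjusted p under 0.05. The smallest unadjusted p among the 10 were 0.0598 for Hmox1 and 0.0768 for Gclc. The acrophase of Mt2 was 2.06 ± 1.45 h (SE) later in diabetic retinas, and that of Nfe2l2 differed by -0.39 ± 1.27 h and that of Gclc by 0.20 ± 1.37 h. Hmox1, which had no fitted peak of any precision in diabetic retinas (SE 8.60 h), gave no usable shift. The interaction of genotype with the 6 time points likewise passed for none of the 10 and for none of all genes, with 514 (2.69%) at an unadjusted p under 0.05. DESeq2 called 2 genes in the latter test and none in the former, and neither of the 2 was among the 10.

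Within groups, the metallothioneins rose and fell together from library to library. Over the 58 libraries, each taken as its log2 deviation from the mean of its genotype and time point, Mt1 and Mt2 had a Pearson r of 0.895 and a Spearman rho of 0.869. Mt1 and Mt3 had an r of 0.763 (rho 0.720) and Mt2 and Mt3 of 0.713 (rho 0.672). Each had a permutation p of 1e-05, the smallest that 100000 two-sided shuffles within groups can give, and an adjusted p of 3e-05 over the 9 relations computed. Without the 2 libraries farthest out on the first gene, r was 0.875, 0.739 and 0.698. The first relation was as close in control (r = 0.898) as in diabetic libraries (r = 0.908). Mt1 and Mt2 are close copies of each other, and reads shared between them could add to their relation.

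Nfe2l2 was related in this way to Hmox1 alone among its targets, with r = 0.487 and rho = 0.455 (permutation p = 0.00094 and 0.00161, adjusted p = 0.00212 and 0.00362). Without the 2 outermost libraries r was 0.441, and it was 0.575 in control and 0.431 in diabetic libraries. The relations of Nfe2l2 with Nqo1 (r = -0.06), Gclc (0.10), Gclm (-0.14), Txnrd1 (0.12) and Srxn1 (0.02) did not pass, with adjusted p-values of 0.660 to 0.892.

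The same deviations were set against the log2 marker sums in 30 further relations. How many of all genes relate to these sums was not computed, so the relations are given for each gene and not as a count. With the Müller glia sum, Mt3 was closest (r = 0.546, rho = 0.593, permutation p = 3e-05 for both, adjusted p = 0.0009 and 0.0006), and Mt1 (r = 0.429), Mt2 (0.419), Nfe2l2 (0.397), Srxn1 (0.382) and Hmox1 (0.345) followed, with adjusted permutation p-values from 0.00845 to 0.0481. Within genotypes, r with the Müller glia sum was 0.724 in control and 0.365 in diabetic libraries for Mt3, 0.706 and 0.213 for Mt1, 0.614 and 0.218 for Mt2, and 0.115 and 0.541 for Hmox1. With the sum of astrocyte and reactive glia markers, Srxn1 (r = 0.545), Mt3 (0.539), Mt2 (0.530) and Mt1 (0.460) passed, with adjusted permutation p-values from 0.0021 to 0.00402. Nqo1 passed there by r (0.342, adjusted permutation p = 0.0400) but not by rho (adjusted permutation p = 0.0572), and its r was 0.508 in control and -0.05 in diabetic libraries. Txnrd1 passed there by rho (0.349, adjusted permutation p = 0.0449) but not by r (0.307, adjusted permutation p = 0.0729). With the pigment epithelium sum, Mt2 (r = 0.423, rho = 0.398, adjusted permutation p = 0.0127) and Nqo1 (r = 0.381, rho = 0.338, adjusted permutation p = 0.0406) passed. Without the 2 libraries farthest out in that sum, r fell to 0.348 for Mt2 and 0.258 for Nqo1. Within genotypes, r with the pigment epithelium sum was 0.592 in control and 0.164 in diabetic libraries for Mt2, and 0.452 and 0.195 for Nqo1. Nfe2l2 was not (r = 0.04, permutation p = 0.812).

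**Figure D4:**
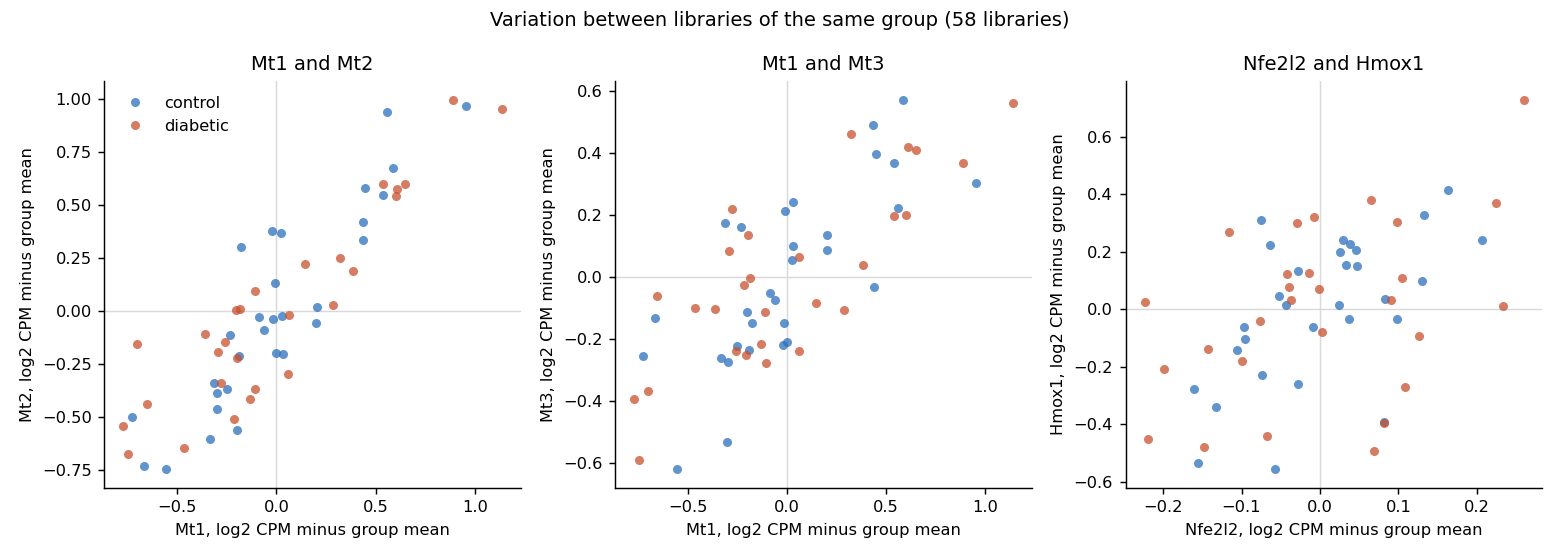
Log2 CPM (counts scaled to library size) minus the mean of the library's own genotype and time point, for Mt2 against Mt1 (left), Mt3 against Mt1 (middle) and Hmox1 against Nfe2l2 (right), with 1 point per library, blue for control and red for diabetic retinas. Points of both genotypes lie along a rising line in the first panel (r = 0.895) and scatter more widely in the third (r = 0.487).

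None of the 10 genes differed between diabetic and control retinas over all time points, where 3.00% of all genes did (15.6% at an unadjusted p under 0.05). The log2 fold changes of diabetic over control retinas ran from 0.01 to 0.23, with adjusted p-values of 0.299 or more. Those of Gclc, Gclm and Mt3 lay so near 0 that their sign turned when single libraries were left out, and it also turned with the pigment epithelium sum as a covariate for Gclc (-0.00408) and with replicate number as a block for Mt3 (-0.0121). Srxn1 came closest, at 0.08 ± 0.04 (SE, unadjusted p = 0.0425, adjusted p = 0.299). The largest change was that of Mt2, at 0.23 ± 0.16 with a 95% interval from -0.09 to 0.56, followed by Mt1 at 0.17 ± 0.15 (interval -0.13 to 0.47) and Nqo1 at 0.14 ± 0.09 (interval -0.04 to 0.32). Without diabetic ZT13 replicate 5, the library with 1093.1 counts of Mt1, the change was 0.06 for Mt1 and 0.14 for Mt2, so the size and order of these values rest in part on that library. For Nfe2l2 the change was 0.05 ± 0.05 (interval -0.04 to 0.15), for Hmox1 0.06 ± 0.09 (-0.11 to 0.23), for Txnrd1 0.04 ± 0.03 (-0.01 to 0.09), for Mt3 0.03 ± 0.09 (-0.15 to 0.21), for Gclm 0.01 ± 0.05 (-0.09 to 0.11) and for Gclc 0.01 ± 0.03 (-0.05 to 0.07). The intervals of the 10 genes thus end at a 1.47-fold rise (Mt2) and at a fall of 0.15 on the log2 scale (Mt3).

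At single time points none of the 60 tests of a gene passed, where 0.0105%, 0.0209%, 0.00523%, 0.00%, 0.173% and 0.00% of all genes did from ZT1 to ZT21. In 4 of the 60 the unadjusted p was under 0.05, against 5.56%, 6.12%, 4.51%, 4.45%, 8.88% and 4.61% of all genes. These were Mt1 at ZT13 (log2 fold change 0.97 ± 0.31, adjusted p = 0.813), Mt2 at ZT13 (0.80 ± 0.32, adjusted p = 0.959), Txnrd1 at ZT17 (0.14 ± 0.06, adjusted p = 0.521) and Gclc at ZT21 (-0.13 ± 0.06, adjusted p = 0.999). The 5 control libraries at ZT13 held 269.6, 161.6, 267.4, 524.4 and 235.1 normalized counts of Mt1, which overlapped the 4 diabetic libraries given above. Without the diabetic library with 1093.1 counts, the ZT13 differences were 0.47 ± 0.31 for Mt1 and 0.38 ± 0.34 for Mt2. Markers of other tissues also stood higher in diabetic retinas at ZT13, with a median log2 fold change of 0.91 over the 4 lens markers tested, 0.64 over 8 pigment epithelium markers, 0.57 over the 2 cornea and ciliary body markers tested and 0.23 over 6 astrocyte and reactive glia markers, against 0.02 over 8 Müller glia markers. None of these markers passed the test. The blood marker sum was 72.6 ± 70.0 (SD, n = 4) in diabetic and 8.28 ± 6.35 (n = 5) in control retinas. With the pigment epithelium sum as a covariate the ZT13 difference was 0.78 ± 0.32 for Mt1 and 0.53 ± 0.31 for Mt2, and with the Müller glia sum it was 0.96 ± 0.28 and 0.80 ± 0.30, none of them past the adjusted threshold. The part of the lens, cornea, ciliary body, astrocyte and blood signal was not tested.

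**Figure D5:**
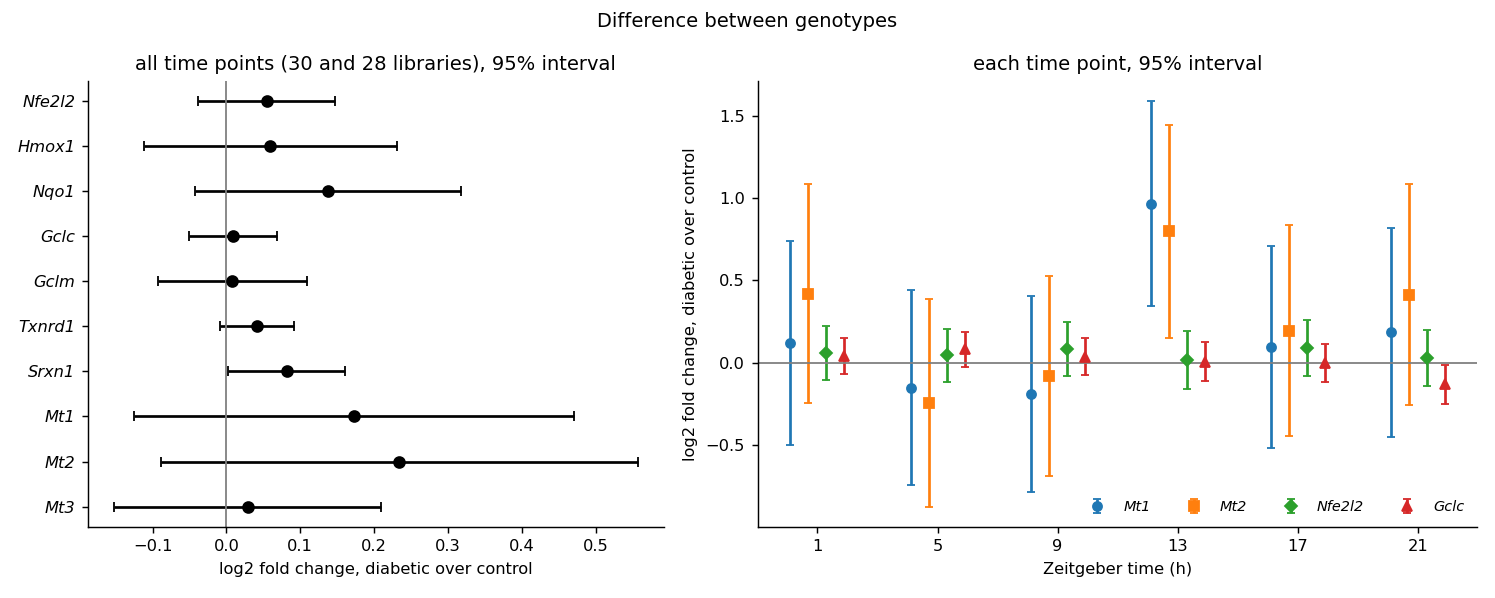
Left, the log2 fold change of diabetic over control retinas for each of the 10 genes over all time points, with points for the estimate and bars for the 95% interval. Right, the same for Mt1, Mt2, Nfe2l2 and Gclc at each Zeitgeber time in hours, where the largest values are those of Mt1 (0.97) and Mt2 (0.80) at ZT13.

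Of the regulators around NRF2, 3 of 8 passed the time-of-day test in control retinas and 1 of 8 in diabetic retinas, against the 9.10% and 10.1% of all genes that also stand as the background of the lists that follow. Mafg, which encodes a small MAF partner of NRF2, passed in both (adjusted p = 2.74e-10 and 1.97e-08). Like Nfe2l2 it was highest at ZT17, at 1587 ± 91.2 normalized counts (n = 5) in control and 1559 ± 140 (n = 4) in diabetic retinas, against 999 ± 85.1 at ZT9 and 988 ± 98.0 at ZT5. The other small MAF genes that passed in control retinas ran the other way, with their peak at ZT1. Mafk went from 100.3 ± 17.5 at ZT1 to 61.7 ± 8.80 at ZT17 (adjusted p = 0.00172), and Maff, at few reads, from 11.6 ± 4.51 at ZT1 to 3.02 ± 1.80 at ZT13 (adjusted p = 0.0218). In diabetic retinas Mafk (adjusted p = 0.0529) and Maff (0.153) did not pass. None of the 8 differed between the genotypes over all time points, and Keap1, the NRF2 inhibitor, stood at 692 ± 52.7 normalized counts in control and 691 ± 60.4 in diabetic retinas.

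Of 20 further NRF2 targets, 1 passed the time-of-day test in each genotype, and none differed between the genotypes. Taldo1, a transaldolase of the pentose phosphate pathway, passed in control retinas (adjusted p = 0.0362), from 774 ± 46.0 at ZT5 to 963 ± 135 normalized counts at ZT17. Gsta4, a glutathione transferase for lipid peroxidation products, passed in diabetic retinas (adjusted p = 0.0289), from 148 ± 14.4 at ZT5 to 215 ± 37.4 at ZT17. Of 15 other antioxidant enzymes, Prdx6, a peroxiredoxin that reduces phospholipid peroxides, passed in both genotypes (adjusted p = 0.00616 and 0.000773), with its highest means at ZT17, 1485 ± 111 in control and 1586 ± 193 in diabetic retinas. Of 13 tested genes of zinc, copper and iron handling, Trf, the iron carrier transferrin, passed in both (adjusted p = 1.8e-05 and 1.44e-07). It went from 27.3 ± 5.43 at ZT1 to 74.7 ± 24.5 normalized counts at ZT21 in control and from 13.1 ± 3.14 at ZT5 to 66.6 ± 10.3 at ZT13 in diabetic retinas. Trf is also expressed by the pigment epithelium, whose marker sum had its lowest and highest means at these same time points. The part of that tissue in the Trf counts was not tested.

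As glucocorticoids act on Mt1 and Mt2, the glucocorticoid receptor and 9 of its targets were also examined. In control retinas 5 of 10 passed the time-of-day test, and 4 of 10 did in diabetic retinas, where 9.10% and 10.1% of all genes did. Klf9 was highest at ZT17 in both genotypes, at 2054 ± 124 and 2202 ± 82.6 normalized counts, and Zbtb16 at ZT13, at 201 ± 26.1 and 238 ± 24.5. Sgk1 was highest at ZT1, at 6181 ± 505 and 6177 ± 467. Ddit4 (adjusted p = 0.0174) and the clock gene Per1 (0.0358, named after its values were seen) passed in control retinas, and Fkbp5 (0.00181) passed in diabetic retinas. The difference between time courses passed for none of the 10 genes of the list. Over all time points 2 of the 10 differed between the genotypes, where 3.00% of all genes did, namely Fkbp5 (log2 fold change 0.23 ± 0.05, adjusted p = 0.00585) and Cdkn1a (0.52 ± 0.12, adjusted p = 0.00643), both higher in diabetic retinas. Fkbp5 stood at 346 ± 30.1 normalized counts in control and 406 ± 76.1 in diabetic libraries, and Cdkn1a, a cell cycle inhibitor that p53 also induces, at 27.7 ± 8.0 and 40.0 ± 14.7. The median log2 fold change was 0.07 over the 10 genes of the list, 0.06 over the 10 genes described here and 0.00 over all genes tested.

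For each gene that passed the time-of-day test, the 3 genes most like it, the 10 genes themselves left out, were found by Pearson's r over log2 CPM in the 58 libraries, among 12883 genes with a median above 50 normalized counts. These r describe the libraries, which share time of day and composition, and carry no test. Nfe2l2 was most like Nin (0.801), Pawr (0.767) and Sertad2 (0.765), and all 3 had their highest mean at ZT17 in both genotypes. Gclc was most like Ehd4 (0.668), Pno1 (0.666) and Smyd5 (0.656), which were highest at ZT5 or ZT9. Mt1 and Mt2, whose levels had an r of 0.905 with each other, were each ranked against the rest. Mt1 was most like Selenow (0.793), which encodes a selenoprotein, Fth1 (0.761), which encodes the ferritin heavy chain and is itself an NRF2 target, and S100a1 (0.752), which were all highest at ZT17. Mt2 was most like Sema3b (0.704), Slc4a5 (0.701) and Slc7a5 (0.697), and Nqo1 was most like Fads3 (0.704), Clic6 (0.698) and Ezr (0.673). Ezr and Clic6 are abundant in ocular epithelia, and the part of the pigment epithelium in their likeness to Nqo1 was not tested.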

How the data were processed

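RNA sequencing reads of 58 mouse retinas were processed by the authors. According to the submitters' processing notes, reads were checked with FastQC, aligned to GRCm38.p5 with STAR 2.7.4a and counted per gene with HTSeq 0.11.1. The deposited values are raw read counts per gene symbol for 52459 genes, not normalized. The library strand setting and the treatment of reads with several positions are not given in the sources used here. Groups and replicate numbers were read from the library titles, and the labels name no batch.

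From these counts, normalized counts were made with DESeq2 1.42.0 size factors, and genes with a median above 4 over all libraries were tested with edgeR 4.0.16 (TMM factors, quasi-likelihood F test, R 4.3.3), with Benjamini-Hochberg adjustment over 19120 genes and a threshold of 0.05. Genotype was tested over all libraries and, in 1 fit of 12 groups, at each time point, as were time of day within each genotype and its interaction with genotype. Genotype by 24 h cosine took the place of the study's differential rhythmicity package. Empirical JTK_CYCLE was written anew with 30 waveforms (6 phases, 5 widths) and 200000 shuffled series. The 95% intervals are the estimate and its SE scaled by the t distribution. RPKM used Gencode M21 exon lengths. Promoter windows came from RefSeq. Simulated data were used to check the edgeR tests of genotype, time of day and 24 h cosine, and the rhythm test. The interactions, acrophase fits, relations between genes, motif search and alternatives were not checked in this way.

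The members, lists and tests were chosen with earlier results of these data known. The genes named are the 10 members, in each pathway list up to 4 genes past the threshold with the smallest p-values, Keap1, which was named after its values were seen, and 3 look-alike genes per member called over time. The alternatives were DESeq2 size factors in edgeR, no filter or filterByExpr, DESeq2, a replicate block, time point as a covariate, each time point alone, each library left out and other rhythm settings. Leaving out the 3 lens libraries and the marker sums as covariates were chosen after seeing the data. Counting error is smallest for the deepest libraries, and Hmox1 and Nqo1 rest on few reads. Every library was used once, since the 113 pairs of replicates differed by at least 1.94 chi-square per degree of freedom.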

Additional observations from a re-analysis of the deposited data

Results flagged for a closer look

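The normalized counts of each gene were examined in each of the 12 groups for a library far from the others of its group (Dixon's criterion, 120 groups of 4 to 6 libraries). In 9 groups the highest or lowest library stood apart, and chance alone flags about 1 in 20 groups, which would be 6 of 120. Diabetic ZT5 replicate 4 stood above its group in both Mt1, at 409.6 against 158.5 to 229.4, and Mt2, at 188.2 against 58.9 to 93.3. Control ZT5 replicate 4 stood above its group in Mt1, at 380.5 against 212.7 to 259.9. Control ZT1 replicate 3 was low in Mt3, at 75.1 against 124.6 to 135.8. Gclm was low in diabetic ZT5 replicate 5, at 348.1 against 463.8 to 509.5, and in control ZT9 replicate 4, at 382.2 against 476.7 to 515.1. It was high in diabetic ZT17 replicate 1, at 533.1 against 382.4 to 392.4. Nfe2l2 was high in control ZT1 replicate 1, at 350.5 against 282.2 to 301.4, and Nqo1 was low in control ZT9 replicate 5, at 30.2 against 42.3 to 45.4. No library was left out of the main tests for this.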

How the results depend on the processing

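No gene of the 10 passed between genotypes, over all time points or at any one, or in either interaction under any alternative run, each of the 58 libraries left out included. The time-of-day test called 2 of them in control and 5 in diabetic retinas, where 9.10% and 10.1% of all genes passed. These counts ran from 1 to 3 and from 3 to 5 with each library left out, and the share of all genes in those fits is not given here. With the pigment epithelium marker sum as a covariate 1 and 2 of the 10 passed (1358 and 1122 of all 19120 genes). With the Müller glia marker sum 1 of the 10 passed in control (1049 of all genes). With no filter on low counts Nqo1 did not pass in diabetic retinas (adjusted p = 0.105). The rhythm test's 5 and 7 genes became 2 and 4 with adjusted p-values. With edgeR's cosine model 3 passed in control retinas (2334 of all 19120 genes), likewise with the replicate block (3055) and without the lens libraries (2162). With that model 2 and 3 passed with the pigment epithelium sum (2228 and 1736), and 2 and 4 with the Müller glia sum (1223 and 2893). A few genotype differences near 0 changed sign. Gclc ran from -0.00069 to 0.0179 with each library left out and was -0.00408 with the pigment epithelium sum, Gclm ran from -0.00648 to 0.0247, and Mt3 ran from -0.00726 to 0.0618 and was -0.0121 with the replicate block.

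Replicates of one number need not share a day or litter. In 20 of 26 pairs of the same number and time point the deviations from the group means correlated above 0.1 (range -0.464 to 0.814), with a mean of 0.142 against -0.0309 for other numbers, and 25 of 58 libraries correlated best with their own number. Libraries of one number thus shared some variation on average, but not in every pair, which was the condition for treating them as pairs. With the replicate block the time-of-day test called 3 genes in control (Mt1 added, adjusted p = 0.0321) and 5 in diabetic retinas, while the genes called of all 19120 rose from 1740 to 2456 and from 1933 to 2412. Over all genes, the 574 that differed between genotypes became 920 with time point as a covariate and 1086 with the Müller glia sum, 387 with no filter, 429 without the lens libraries, 515 with the block and 430 to 611 with each library left out, and the 33 at ZT17 became 61 with the block, 90 with DESeq2, 86 with the Müller glia sum, 22 with no filter and 0 with that time point alone. The 4 at ZT5 became 10, 24 and 14 in the first 3 of these and 28 alone. The 1740 and 1933 genes changing over the day in control and diabetic retinas became 1049 and 2053 with the Müller glia sum and 1358 and 1122 with the pigment epithelium sum. With no filter, 3 genes differed in rhythm between genotypes. Intervals at single time points were widest for Mt1 and Mt2, as in Mt1 at ZT13 (1.27-fold to 3.01-fold).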
